A study of Mus musculus with 4 samples.

Results

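Transcripts of antigen presentation and of macrophages were examined in RNA of skeletal muscle fractions. They were chosen by name, with earlier results of these data known, and comprise 10 of the 16472 genes in the table. Cd74, H2-Aa, H2-Ab1 and H2-Eb1 belong to the class II branch of the major histocompatibility complex (MHC), H2-K1, H2-D1 and B2m to the class I branch, and Lyz2, Csf1r and Mrc1 are macrophage genes. All 10 were found and all 10 were tested, and each had a mean of at least 23.5 normalized counts in remaining tissue.

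RNA of muscle of wild-type mice was sequenced in 4 libraries, 2 of isolated mitochondria and 2 of a tissue fraction. The sources describe this second group in different ways. Its treatment label names tissue without mitochondria and its extraction protocol a remaining fraction, whereas its titles and a legend of the study name total muscle, the latter as lysates. It is called remaining tissue here, and whether it was whole or depleted of mitochondria could not be settled. Both groups carry no further allele or agent, and age, sex and strain of their animals were not given in the sources used here. The methods name a strain to which chimeras of the mutant lines were backcrossed, but tie none to these libraries. The methods of the study describe, for heart, a digestion of the mitochondrial pellet with digitonin and RNase A; whether muscle was treated alike is not stated. Nothing in the labels says that the 2 libraries of a group came from separate animals, so that p-values measure the spread between these libraries only.

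Class II molecules are dimers of an alpha and a beta chain that show peptides from ingested protein to helper T cells, and the invariant chain Cd74 escorts them from the endoplasmic reticulum. They are made mainly by professional antigen presenting cells, such as macrophages, dendritic cells and B cells. Class I molecules pair a heavy chain with beta-2 microglobulin and show peptides from the cell's own proteins on nearly every nucleated cell. Resident macrophages of muscle lie in the connective tissue between fibres, and their mRNAs for surface and secreted proteins are translated at the endoplasmic reticulum, as are those of all MHC chains.

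Class II genes share a promoter module in which a so-called Y box (ATTGG on one strand, CCAAT on the other) lies shortly before the start of transcription. To show the sequence that these genes have in common, the 150 bases before the start are given for H2-Aa (chr17:34287824-34287973, minus strand) and H2-Eb1 (chr17:34305717-34305866, plus strand) from RefSeq on build GRCm38.p6, with each match in capitals.
H2-Aa: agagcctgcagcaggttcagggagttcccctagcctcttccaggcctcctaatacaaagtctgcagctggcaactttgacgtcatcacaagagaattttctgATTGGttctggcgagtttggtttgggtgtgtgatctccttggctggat
H2-Eb1: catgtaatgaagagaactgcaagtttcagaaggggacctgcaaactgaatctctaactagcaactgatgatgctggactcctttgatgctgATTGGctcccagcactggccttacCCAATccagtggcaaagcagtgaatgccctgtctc
The match began 48 bases before the start in H2-Aa, and 59 and 35 bases before it in H2-Eb1. RefSeq promoters were found for 7 of the 10 genes, and 7 of their 8 promoters held the motif on either strand within 150 bases, the exception being Lyz2. The motif is short, and 24.5% of all 32851 promoters held it in a window of this length. H2-Ab1 had no entry.

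Depth differed between the fractions. Isolated mitochondria held 42749263 and 35306106 assigned reads in replicates 1 and 2. Of these, 95.3% and 94.1% fell on the mitochondrial genome and only 100924 and 181152 on nuclear genes other than copies of that genome. Remaining tissue held an estimated 11989623 and 11968682 such nuclear reads. The deposited values, called normalized counts, are gene counts divided by a size factor per library, so that 1 read was worth 9.05 and 5.06 normalized counts in isolated mitochondria but an estimated 0.142 in remaining tissue. Values in isolated mitochondria therefore rest on few reads, which are given beside them.

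Transcripts of other organs were also found in the isolated mitochondria, in lists that were added after their values were seen. All 12 hepatocyte markers were higher in both libraries of isolated mitochondria than in both of remaining tissue, against 25.5% of all 6916 genes tested. By limma 4 of the 12 were called higher (adjusted p under 0.05), against 7.32% of those genes. Of the 12 markers, 11 had a remaining tissue mean under 20 and were tested only through isolated mitochondria. Together the 12 markers held 187.7 and 32.8 ppm of nuclear reads in remaining tissue and 16580 and 3124 in isolated mitochondria. Alb, which encodes serum albumin, had 185 and 30 normalized counts in remaining tissue and 6986 and 1629 in isolated mitochondria. Of 5 markers of Kupffer cells, the macrophages of liver, 1 was in the file, Timd4 with 0 and 2 reads in isolated mitochondria. Of 10 cardiomyocyte markers 6 were in the file, with 182.8 and 336.3 ppm against 941 and 2854. Actc1 and Myh6, the most abundant per kb, had 99 and 226 and 196 and 334 normalized counts in remaining tissue. In isolated mitochondria they had 154 and 521 and 525 and 1543, so that the groups of Actc1 overlapped. Myl4 went the other way, with 9 and 6 against 0 and 0. Mybpc3, a myosin binding protein of heart, rested on 3 and 29 reads in isolated mitochondria and was listed at 0 in remaining tissue. It was not called (adjusted p 0.11, limma). Of the 5 cardiomyocyte markers tested, 1 was called higher. Summed, hepatocyte markers were thus higher in replicate 1 of both fractions and cardiomyocyte markers in replicate 2 of both. The part of these organs in the change of the 10 transcripts was not tested.

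Of the 10 transcripts, 7 were called higher in isolated mitochondria by limma, with p-values adjusted over all 6916 genes tested and a threshold of 0.05, and 0 were called lower. Among all genes tested, 7.32% were called higher and 9.3% lower. Because the minimum mean for testing favours genes that are high in isolated mitochondria, the 6500 genes with a remaining tissue mean of at least 20 were counted too, of which 569 were not tested and 4.25% were called higher. The members that rose were Cd74, H2-Ab1, H2-Eb1, H2-K1, Lyz2, Csf1r and Mrc1, by 1.43 to 3.32 on the log2 scale, whereas the median of all tested genes was -0.44. Groups did not overlap, with isolated mitochondria higher, for 9 of the 10, against 25.5% of all tested genes and 15.0% of the genes with a remaining tissue mean of at least 20. In the opposite direction 43.7% of all tested genes did not overlap, and 0 of the 10. Since the members were chosen with earlier results of these data known, the shares of all genes are given as description only. Under every alternative setting but the scaling to all reads, 9 of the 10 kept a positive change, and H2-D1 did not. These are changes relative to the bulk of nuclear transcripts. With libraries scaled to all reads, which in isolated mitochondria are nearly all mitochondrial, 0 of the 10 were called higher and 10 lower, and the median of all tested genes was -6.90. In bulk RNA, fewer cells of a type and less RNA per cell cannot be told apart.

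**Figure D1:**
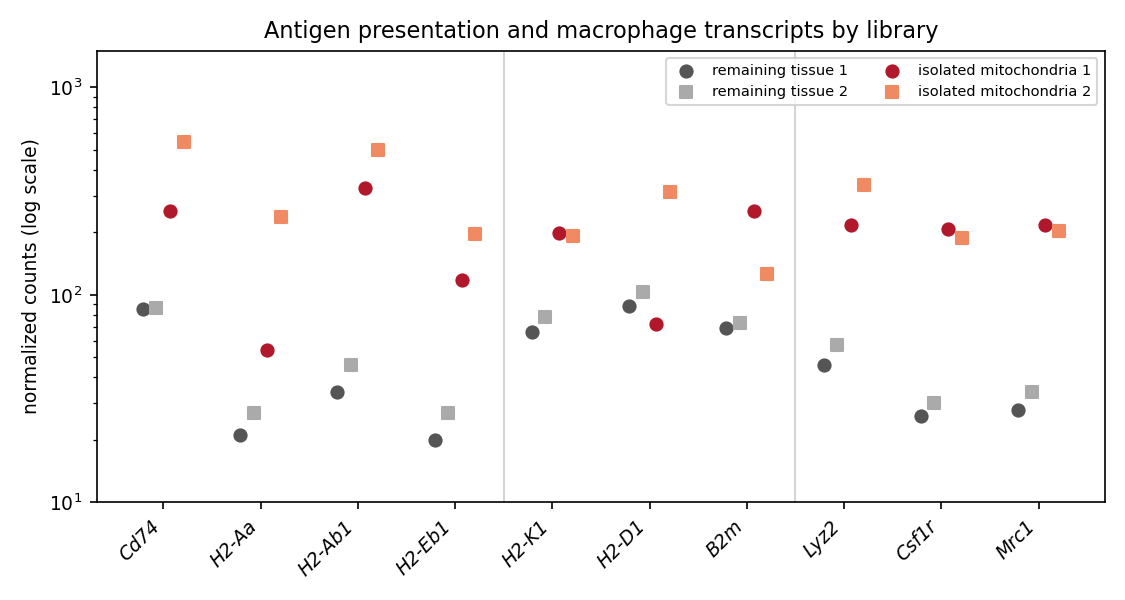
Normalized counts (log axis) of the 10 transcripts in each of the 4 libraries, with class II, class I and macrophage genes separated by vertical lines; each point is 1 library. Isolated mitochondria (red and orange) lie above remaining tissue (grey) for every gene except H2-D1, whose value of 72 in isolated mitochondria replicate 1 is below both tissue values.

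The largest change among the members was found for a class II gene. H2-Ab1 (ENSMUSG00000073421, chromosome 17, 34257689 to 34269419, plus strand), the beta chain of the I-A dimer, had 34 and 46 normalized counts in remaining tissue and 326 and 501 in isolated mitochondria, the latter from 36 and 99 reads. Both libraries of isolated mitochondria were far above both of remaining tissue, and the mean was 10.3 times higher (40.0 ± 8.49 against 413.5 ± 124, SD, n = 2 each). On the log2 scale H2-Ab1 rose by 3.32 (SE 0.33, adjusted p 0.0145, limma), and 228 of 6862 nuclear genes tested (3.32%) had a larger change.

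Its dimer partner varied more. H2-Aa (ENSMUSG00000036594, chromosome 17, 34282744 to 34287823, minus strand), the alpha chain, had 21 and 27 normalized counts in remaining tissue and 54 and 238 in isolated mitochondria, from 6 and 47 reads. The groups did not overlap, yet the libraries of isolated mitochondria differed 4.41-fold, and H2-Aa was not called (2.21 on the log2 scale, SE 0.79, adjusted p 0.130, limma). It was called higher by edgeR and DESeq2 on reads (adjusted p 0.0124 and 0.00202). Its change was 3.27 without isolated mitochondria replicate 1 and 1.15 without replicate 2. The mean ratio of 6.08 was 9.92 without isolated mitochondria replicate 1 and 2.25 without replicate 2. Per kb of exon, H2-Ab1 stood above H2-Aa in both fractions, at 15.6 against 6.32 normalized counts per kb in remaining tissue and 161 against 38.4 in isolated mitochondria.

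H2-Eb1 (ENSMUSG00000060586, chromosome 17, 34305867 to 34316674, plus strand), the beta chain of the I-E dimer, had 20 and 27 normalized counts in remaining tissue and 118 and 197 in isolated mitochondria, from 13 and 39 reads. The groups were well apart, with a ratio of means of 6.70 and a rise of 2.66 (SE 0.38, adjusted p 0.0249, limma). Genes with a mean of at least 5 as the set tested gave an adjusted p of 0.0505.

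Cd74 (ENSMUSG00000024610, chromosome 18, 60803848 to 60812652, plus strand), the invariant chain, was the most abundant class II transcript in remaining tissue, at 50.9 normalized counts per kb. It had 85 and 86 normalized counts in remaining tissue and 253 and 546 in isolated mitochondria, from 28 and 108 reads. Replicates of remaining tissue were almost the same and those of isolated mitochondria differed 2.16-fold, with both above remaining tissue. The ratio of means was 4.67, and it was 6.39 without isolated mitochondria replicate 1 and 2.96 without replicate 2. Cd74 rose by 2.11 (SE 0.43, adjusted p 0.0466, limma), a call close to the threshold that was lost in 3 alternatives (adjusted p 0.0764 to 0.0808), those without a trend in the variance model, without a filter and with a minimum mean of 5.

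Of the class I genes 1 of 3 was called. H2-K1 (ENSMUSG00000061232, chromosome 17, 33996017 to 34000347, minus strand), a classical heavy chain, had 66 and 78 normalized counts in remaining tissue and 199 and 192 in isolated mitochondria, from 22 and 38 reads. Replicates lay close together in both groups, and H2-K1 rose by 1.43 (SE 0.22, adjusted p 0.0284, limma). The call did not hold without remaining tissue replicate 1 (adjusted p 0.360) or 2 (0.239), nor without a trend in the variance model (0.0554).

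B2m (ENSMUSG00000060802, chromosome 2, 122147686 to 122153083, plus strand), the light chain common to class I molecules, had 69 and 73 normalized counts in remaining tissue and 253 and 126 in isolated mitochondria, from 28 and 25 reads. Here replicate 1 of isolated mitochondria was the higher one, opposite to Cd74 and H2-Aa, and the groups did not overlap. B2m stood at 1.32 (SE 0.40, adjusted p 0.0995, limma) and was not called. By edgeR and DESeq2 on reads B2m was called higher (adjusted p 0.0225 and 0.00383), as by limma with libraries scaled to nuclear reads (0.0354). Its change was 0.82 without isolated mitochondria replicate 1 and 1.82 without replicate 2. Its ratio of means was 2.67, and 1.775 without isolated mitochondria replicate 1.

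H2-D1 (ENSMUSG00000073411, chromosome 17, 35262730 to 35267499, plus strand), the other classical heavy chain, was the only member whose groups overlapped. It had 88 and 103 normalized counts in remaining tissue and 72 and 314 in isolated mitochondria, from 8 and 62 reads. Replicate 1 of isolated mitochondria was below both tissue libraries and replicate 2 above both, and H2-D1 stood at 0.66 (SE 0.76, adjusted p 0.558, limma). The sign rested on 1 library, since the change was -0.40 without isolated mitochondria replicate 2 and 1.71 without replicate 1. H2-K1 and H2-D1 are similar in sequence, and reads that align to several places were left out by the authors. Of all stretches of 75 bases, the read length, in their transcripts, 3.10% in H2-K1 and 5.56% in H2-D1 were also found in transcripts of other genes.

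All 3 macrophage genes rose. Lyz2 (ENSMUSG00000069516, chromosome 10, 117277331 to 117282321, minus strand), the lysozyme of macrophages and neutrophils, had 46 and 57 normalized counts in remaining tissue and 217 and 339 in isolated mitochondria, from 24 and 67 reads. It rose by 2.38 (SE 0.32, adjusted p 0.0229, limma), and 5.96% of its 75-base stretches were shared with its neighbour Lyz1.

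Csf1r (ENSMUSG00000024621, chromosome 18, 61100598 to 61132149, plus strand), the receptor through which macrophages receive their survival signal, had 26 and 30 normalized counts in remaining tissue and 208 and 187 in isolated mitochondria, from 23 and 37 reads. Both pairs of replicates were close, the ratio of means was 7.05, and the rise was 2.78 (SE 0.24, adjusted p 0.0120, limma). Csf1r shares 873 exon bases with Hmgxb3 on the opposite strand. The strand setting of the counting was not given in the sources used here, so that reads of both genes in these bases may have been left out or confused.

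Mrc1 (ENSMUSG00000026712, chromosome 2, 14229392 to 14332057, plus strand), the mannose receptor of resident macrophages, gave values almost like those of Csf1r. It had 28 and 34 normalized counts in remaining tissue and 217 and 202 in isolated mitochondria, from 24 and 40 reads. It rose by 2.72 (SE 0.24, adjusted p 0.0123, limma). The calls of H2-Ab1, Lyz2, Csf1r and Mrc1 as higher held in 12 of 13 alternatives each, the exception being the scaling to all reads.

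**Figure D2:**
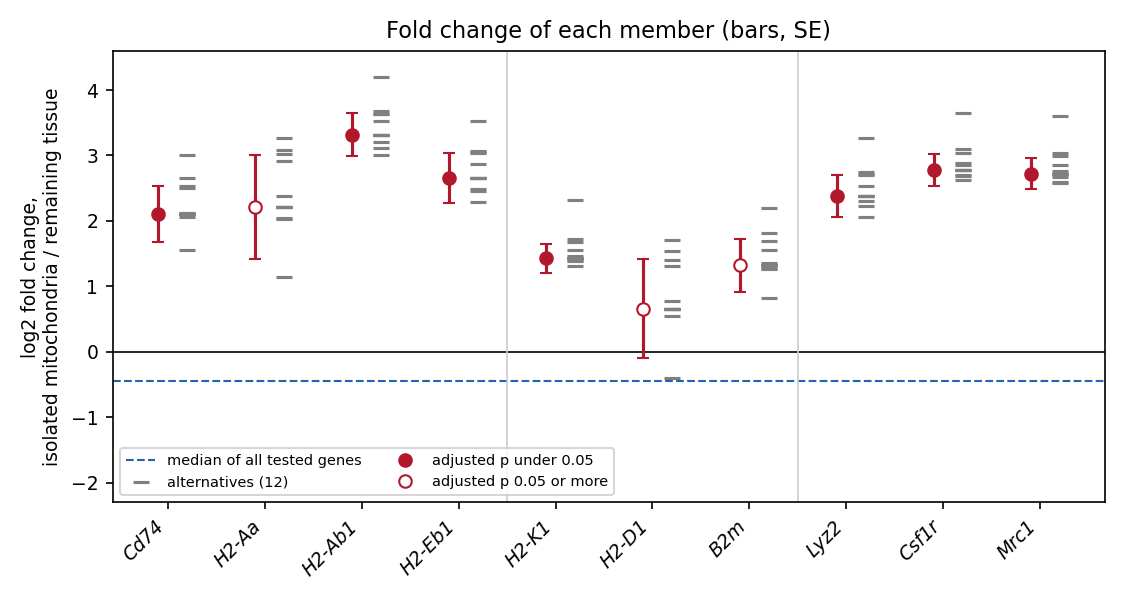
Log2 fold change of each transcript between isolated mitochondria and remaining tissue (points, with SE as bars and filled where the adjusted p was under 0.05), with the values under 12 alternatives as grey dashes and the median of all tested genes (-0.44) as a dashed line; the scaling to all reads is not drawn. The median was 2.44 for the 4 class II genes, 1.32 for the 3 class I genes and 2.72 for the 3 macrophage genes, and the range of H2-D1 crosses 0. Whether these groups of genes differed in change was not tested.

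Abundance was compared among the members per length. Ordered by normalized counts per kb of exon, remaining tissue held B2m (82.6), Cd74 (50.9), Lyz2 (39.1), H2-D1 (37.0), H2-K1 (24.5), H2-Ab1 (15.6), H2-Eb1 (12.1), H2-Aa (6.32), Mrc1 (4.87) and Csf1r (4.85). Neighbours whose replicates overlapped were Lyz2 and H2-D1, H2-Ab1 and H2-Eb1, and Mrc1 and Csf1r. In isolated mitochondria, Cd74 (238), B2m (220) and Lyz2 (211) were highest, H2-Ab1 followed (161), and the replicates of all 4 overlapped. H2-Eb1 (81.0), H2-D1 (74.8), H2-K1 (66.5), H2-Aa (38.4), Csf1r (34.2) and Mrc1 (32.9) came after them, and each of these overlapped with its neighbour among them, apart from H2-K1 and H2-Aa. H2-Ab1 thus stood above both class I heavy chains in isolated mitochondria and below both in remaining tissue.

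To follow the transcripts within the nuclear RNA of each library, their reads were also expressed as ppm of all nuclear reads, without copies of the mitochondrial genome. The 10 together held 283.8 and 330.4 ppm in remaining tissue and 2101 and 3102 in isolated mitochondria, from 212 and 562 reads. The 4 class II genes held 94.1 and 109.5 against 822 and 1617, the 3 class I genes 131.0 and 149.6 against 575 and 690, and the 3 macrophage genes 58.7 and 71.3 against 703.5 and 795. The libraries of isolated mitochondria differed more in the class II share than in the class I and macrophage shares. For 9 of the 10 genes both 95% Wilson intervals of isolated mitochondria lay above both of remaining tissue. H2-D1 was the exception with 79.3 ppm (40.2 to 156) in isolated mitochondria replicate 1 against 60.7 (56.4 to 65.2) in remaining tissue replicate 2. The same count was not made over all genes. With libraries scaled to nuclear genes, the median change of all 6916 genes tested was 0.43, with 1107 called higher and 183 lower (limma). Higher shares were thus not particular to the 10.

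The replicates of isolated mitochondria differed beyond counting error for 3 of the 10, Cd74, H2-Aa and H2-D1. In Cd74 the shares were 277 ppm (192 to 401) in replicate 1 and 596 (494 to 720) in replicate 2, and in H2-Aa 59.5 (27.2 to 130) and 259.5 (195 to 345). In Csf1r, by contrast, 228 (152 to 342) and 204 (148 to 281.5) overlapped almost fully. In remaining tissue all 10 were higher in replicate 2, in Cd74 by 1 normalized count. There the intervals of the replicates did not overlap for 3 of the 10 either, H2-Ab1, Lyz2 and H2-D1. Intervals cover counting error only, and those of remaining tissue rest on estimated reads. Overlapping intervals do not show that replicates agreed within counting error.

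**Figure D3:**
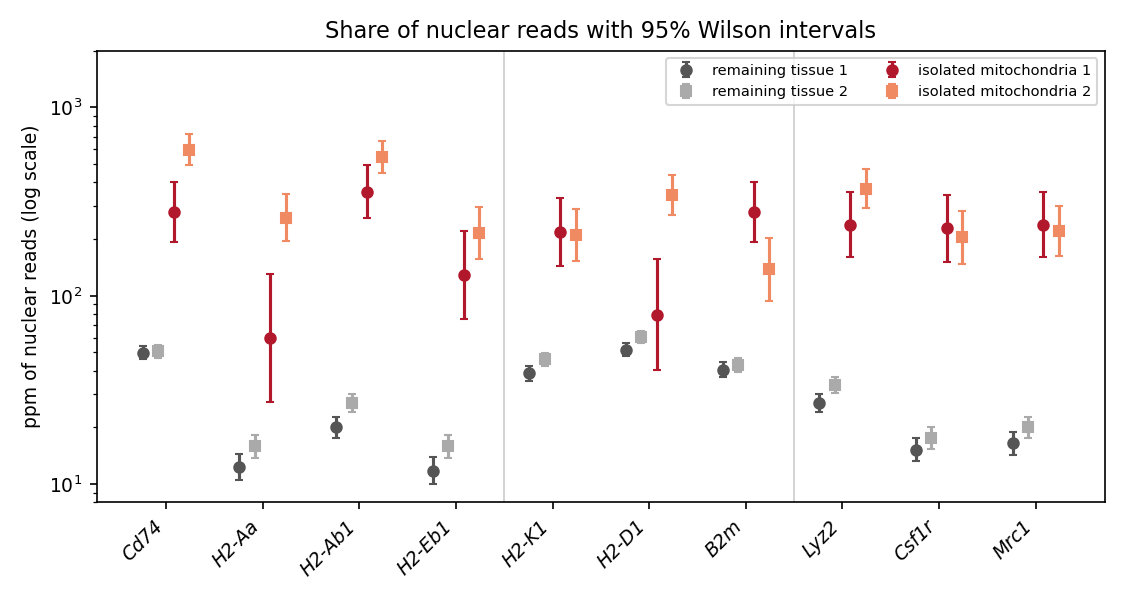
Share of nuclear reads in ppm (log axis) of each transcript in the 4 libraries, with 95% Wilson intervals as bars. The intervals of isolated mitochondria are wide, since each rests on 6 to 108 reads, and those of Cd74, H2-Aa and H2-D1 do not overlap between replicates.

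To place the 10 transcripts among genes of the same pathways, lists of related genes were described by counts and medians. These cover the genes with a remaining tissue mean of at least 20, tested or not. Among all genes with this mean, 4.25% were called higher and 9.89% lower, which is the background for each list below. Of 14 further genes of the class II pathway, 9 were listed in the file and 3 reached this mean. Of these 1 was higher and 0 were lower, with a median log2 fold change of 0.99, where the median of all 6500 genes with this mean was -0.75 (for untested genes, the difference of the mean log2 values). The lysosomal proteases Ctsb and Ctsl, which degrade antigens, had 249 and 257 and 83 and 89 normalized counts in remaining tissue against 362 and 395 and 172 and 172 in isolated mitochondria. Ctsl rose by 0.99 (SE 0.20, adjusted p 0.0476, limma) and Ctsb stood at 0.58 (adjusted p 0.100). Lgmn, an asparaginyl protease, stood at 1.68 (adjusted p 0.0922). Ctss, the protease that trims the invariant chain, rose by 3.36 (SE 0.37, adjusted p 0.0177), but with 7 normalized counts in each library of remaining tissue it was tested only through its 9 and 16 reads in isolated mitochondria.

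Of 21 further genes of the class I pathway, 7 reached a remaining tissue mean of 20, 2 were higher and 0 lower, and their median was 0.90. The chaperones of the endoplasmic reticulum that fold class I chains were abundant. Calr had 203 and 224 normalized counts in remaining tissue and 434 and 465 in isolated mitochondria and rose by 1.07 (SE 0.18, adjusted p 0.0342, limma), and Canx stood at 0.71 (SE 0.19, adjusted p 0.0770). Pdia3, a disulfide isomerase of the loading complex and the other gene that rose, was chosen after its values were seen (2.0, SE 0.24, adjusted p 0.0197). Psme1, a cytosolic activator of the proteasome, stood at 1.02 (SE 0.25, adjusted p 0.0633). Genes for proteins that control MHC transcription had few reads. Of 14 such genes 5 reached the mean, 1 of them untested, and 0 were called. Their median of -2.91 was the value of the untested Rfxap. The 14 together nevertheless held 176.9 and 175.5 ppm of nuclear reads in remaining tissue and 356.7 and 292.6 in isolated mitochondria, from 36 and 53 reads in the latter. The Y box subunits Nfyc (0 and 7 reads in isolated mitochondria) and Nfyb (0 and 3 reads) had 48 and 54 and 47 and 49 normalized counts in remaining tissue, and Rfxap had 1 and 0 reads. The others that reached the mean were Creb1, which stood at 1.12 (adjusted p 0.100) with 42 and 41 normalized counts in remaining tissue and 118 and 71 in isolated mitochondria, and Irf2 at -0.02 (adjusted p 0.983). The class II transactivator Ciita had 6 and 5 normalized counts in remaining tissue and 0 and 15 in isolated mitochondria, from 0 and 3 reads. These 3 were chosen after their values were seen.

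Other surface and secreted proteins of macrophages were examined in the same way. Of 37 further genes, 33 were listed, but only 5 reached the mean, of which 2 were higher, 0 lower and 1 untested, with a median of 1.67. Axl, a receptor for dying cells, had 70 and 72 normalized counts in remaining tissue and 181 and 288 in isolated mitochondria and rose by 1.67 (SE 0.31, adjusted p 0.0389, limma). Cst3, a secreted protease inhibitor that many cell types make, was at 218 and 251 against 145 and 228 (-0.36, adjusted p 0.420), so that its groups overlapped. Cd163, a receptor for haemoglobin with haptoglobin, was the other gene that rose, from 18 and 22 to 81 and 106 normalized counts (2.16, SE 0.31, adjusted p 0.0258). The untested gene was Fcgr3, an Fc receptor, with 24 and 24 normalized counts in remaining tissue and 0 and 15 in isolated mitochondria, both below remaining tissue. Cd163 and Fcgr3 were chosen after their values were seen. Retnla, a secreted protein of alternatively activated macrophages, rose by 3.35 (SE 0.40, adjusted p 0.0195) from 7 and 12 normalized counts, on 11 and 21 reads, and was tested only through isolated mitochondria. The 33 genes together held 286.4 and 325.5 ppm of nuclear reads in remaining tissue and 1367 and 1993 in isolated mitochondria.

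Genes of leukocytes whose proteins are cytosolic or nuclear were rarer. Of 30 such genes, 28 were in the file and 2 reached the mean, of which 0 were called. Lsp1, a binder of actin, had 43 and 43 normalized counts in remaining tissue and 54 and 202 in isolated mitochondria and stood at 1.26 on the log2 scale (adjusted p 0.257, limma). Cotl1 (2.39, SE 0.50, adjusted p 0.0488) and Syk (2.71, SE 0.37, adjusted p 0.0235) rose but were tested only through isolated mitochondria. In all, the 28 genes held 136.6 and 176.5 ppm of nuclear reads in remaining tissue and 575 and 1054 in isolated mitochondria. Whether surface and cytosolic genes differed in change was not tested.

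Markers of other cell types moved with the same comparison. All 8 fibroblast markers rose, against 4.25% of genes with a remaining tissue mean of at least 20 called higher. Their median was 3.05, and they held 1760 and 1849 ppm of nuclear reads in remaining tissue against 23890 and 37140 in isolated mitochondria. The most abundant per kb were Gsn (3.21, SE 0.21, adjusted p 0.00780), Col1a1 (3.03, SE 0.47, adjusted p 0.0292) and Dcn (2.58, SE 0.16, adjusted p 0.00780, limma), which encode gelsolin, a collagen chain and decorin. Of 10 myofibre markers 9 fell and 0 rose, against 9.89% of genes with a remaining tissue mean of at least 20 called lower, with a median of -1.93, among them Myh4 by -3.34 (SE 0.24, adjusted p 0.00840), Acta1 by -1.90 (SE 0.20, adjusted p 0.0162) and Tnnt3 by -1.70 (SE 0.17, adjusted p 0.0144). Myofibre markers nevertheless remained at 74070 and 65910 ppm of nuclear reads in isolated mitochondria.

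Endothelial markers stood lower in isolated mitochondria at the median. Of 6 that reached the mean, 1 fell and 0 rose, with a median of -2.29. Cdh5, the cadherin of endothelial junctions, had 168 and 165 normalized counts in remaining tissue and 36 and 20 in isolated mitochondria and fell by 2.59 on the log2 scale (SE 0.37, adjusted p 0.0249, limma). Pecam1 stood at -4.32 (SE 1.60, adjusted p 0.139), on 0 and 4 reads, and Kdr at -2.0 (SE 0.46, adjusted p 0.0600). Of 5 red cell markers 4 reached the mean, 2 of them untested, and 0 were called, with a median of -1.67. They stood at 97.6 and 104 ppm of nuclear reads in remaining tissue and 119 and 44.2 in isolated mitochondria, where Hba-a2 had 5 and 1 reads, Hba-a1 4 and 2 and Hbb-bs 0 and 3. Of 6 Schwann cell markers 1 reached the mean and 0 were called, Pmp22 standing at 0.66 (adjusted p 0.204), while Mbp had 0 and 4 reads in isolated mitochondria.

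Markers of other immune cells, some of which express class II or lysozyme genes, had few reads in isolated mitochondria, although the shares of some were higher there. Of 8 dendritic cell markers 3 were in the file, and Zbtb46 and Cd209a were listed at 0 in both libraries of isolated mitochondria and Itgax had 0 and 1 reads. Of 8 B cell markers 2 were in the file, Ighm with 66 and 120 normalized counts in remaining tissue against 63 and 61 in isolated mitochondria (-0.52, adjusted p 0.367) and Igkc with 1 and 4 reads in isolated mitochondria. Of 8 markers of T and NK cells 0 were in the file. Of 8 neutrophil markers 2 were, Mmp9 with 2 and 10 reads in isolated mitochondria (2.07, adjusted p 0.160) and Csf3r with 0 and 1. They held 4.67 and 4.68 ppm of nuclear reads in remaining tissue and 19.8 and 60.7 in isolated mitochondria. Mast cell markers had 5 and 13 reads in all, among them Mcpt4 with 2 and 7, Cma1 with 1 and 3 and Tpsb2 with 0 and 3. Their share was 5.84 and 7.60 ppm in remaining tissue and 49.5 and 71.8 in isolated mitochondria, or 7.37 and 10.7 times the tissue mean, where the 10 transcripts together were at 6.84 and 10.1 times. The part of any of these cell types in the change of the 10 transcripts was not tested.

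**Figure D4:**
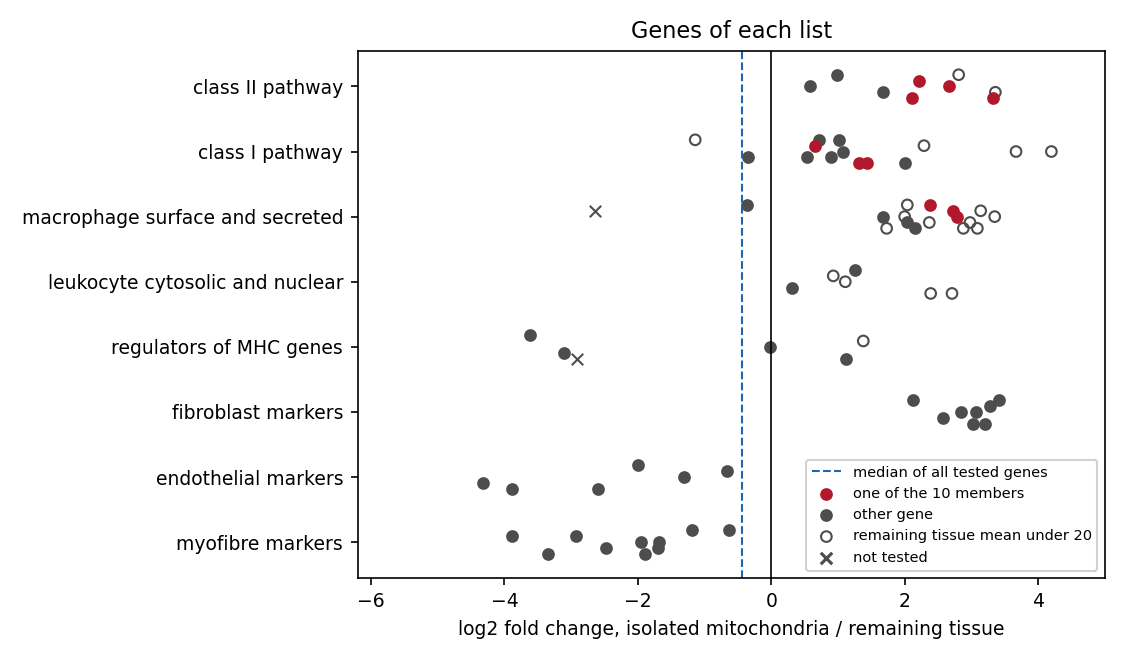
Log2 fold change of the genes of 8 lists (points, the 10 members in red). Open points had a remaining tissue mean under 20, so that they were tested only through isolated mitochondria, and crosses reached that mean but were not tested. The dashed line is the median of all tested genes (-0.44). The class II, class I and macrophage members and the fibroblast markers lie to the right, and endothelial and myofibre markers to the left of 0.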

How the data were processed

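RNA was sequenced from 4 libraries with a stranded low-input kit, and fragmentation time was adjusted for mitochondrial samples, so that its effect cannot be told apart from the groups. According to the methods, reads were trimmed (Trimmomatic), mapped to GRCm38 (STAR) and counted over exons (featureCounts), and reads of several genes or places were dropped. The deposited signal is this count divided by a size factor per library and rounded by the authors. In isolated mitochondria, 99.96% of 10508 and 99.98% of 11660 values under 2000 were whole multiples of 1 read, so reads were recovered. In remaining tissue they were estimated at 7.05 reads per normalized count.

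The test was limma 3.58.1 in R 4.3.3 (eBayes with trend, two-sided, no covariate) on log2(normalized count + 1), for genes whose mean across libraries reached 20. P-values were adjusted by Benjamini-Hochberg for all 6916 such genes. The pseudocount of 1 shrinks the fold changes of genes that are low in remaining tissue. A 0 in isolated mitochondria, where 1 read was worth 9.05 or 5.06 normalized counts, can instead overstate a fall. Pecam1, Nfyc and Nfyb each had such a 0. With 2 libraries per group no exact two-sided permutation p can fall below 0.333. Alternatives were a pseudocount of 5, a minimum mean of 5 or none, eBayes without trend, other scalings, edgeR 4.0.16 and DESeq2 1.42.0 on reads, a replicate block and leaving out each library. The members, the 15 lists and the rule for named genes (all members, the 3 genes of each list highest per kb in remaining tissue, and called genes of lists with at most 5 calls) were chosen with earlier results of these data known. Lists of hepatocyte, Kupffer cell and cardiomyocyte markers were added after values were seen. Exon lengths came from GENCODE M21, and 17 copies of the mitochondrial genome were found with BLAST 2.17.0. Hydrophobic protein starts, although planned, were not analysed here, and 2 genes that the rule names are not reported here.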

Additional observations from a re-analysis of the deposited data

How the results depend on the processing

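Of the 130 values of single members under alternatives, 101 kept their direction and side of the threshold, 11 gained and 7 lost a call, and 11 reversed. Scaled to the total of all genes, where the median was -6.90, the members stood at -4.73 (Cd74), -4.45 (H2-Aa), -3.51 (H2-Ab1), -4.07 (H2-Eb1), -5.37 (H2-K1), -6.08 (H2-D1), -5.49 (B2m), -4.43 (Lyz2), -4.0 (Csf1r) and -4.07 (Mrc1), with 0 called higher and 10 lower, and 38 genes higher and 6694 lower in all. The other reversal was H2-D1 without isolated mitochondria replicate 2 (-0.40, and 1.71 without replicate 1). Under the remaining alternatives that kept all 4 libraries, 5 to 9 members were called higher and 0 lower.

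Counts over all genes (506 higher and 643 lower, 44.0% of calls higher) moved to 283 and 399 with a minimum mean of 5, to 3026 lower without a filter and to 374 lower without a trend. They were 1107 and 183 (85.8% higher, median 0.43) scaled to nuclear genes, 1104 higher in edgeR (55.9%) and 1404 in DESeq2 (61.6%). The cause was not tested. Leaving out 1 library gave 296 to 1724 higher and 176 to 3198 lower; the lone library of a group is then assumed to vary like the other group. Replicate numbers in the labels are not stated to pair libraries, and deviations of same-numbered libraries correlated at 0.141 across genes. With a replicate block 630 genes were higher and 1144 lower, and 9 members were higher, among them H2-Aa and B2m (adjusted p 0.00275 and 0.0264). Few reads in isolated mitochondria, 6 to 108 per member, limit the precision.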

Other observations

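A pair of class I pathway genes outside the members changed more than any member, and they were chosen after their values were seen. H2-Q10, a secreted class I molecule known from liver, had 8 and 8 normalized counts in remaining tissue and 353 and 76 in isolated mitochondria, from 39 and 15 reads (4.20 on the log2 scale, SE 0.82, adjusted p 0.0432, limma). H2-Q10 shares 75-base stretches with H2-K1. It was higher in replicate 1 of isolated mitochondria, as were all 12 hepatocyte markers, such as Serpina1a with 12 and 4 normalized counts in remaining tissue and 1068 and 142 in isolated mitochondria. Psmb8, a subunit of the immunoproteasome, had 8 and 9 normalized counts in remaining tissue and 136 and 106 in isolated mitochondria, from 15 and 21 reads (3.67, SE 0.33, adjusted p 0.0124). Both were tested only through their values in isolated mitochondria, since their remaining tissue means were under 20.

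Genes of the complement component C1q, which macrophages make, were likewise chosen after their values were seen. Their remaining tissue means were also under 20, so that they were tested only through isolated mitochondria. C1qb had 9 and 23 reads in isolated mitochondria (2.98, SE 0.37, adjusted p 0.0206) and C1qc 8 and 27 (3.14, SE 0.46, adjusted p 0.0264), whereas C1qa, with 3 and 17 reads, stood at 2.04 (SE 0.69, adjusted p 0.118, limma).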
